A study of Mus musculus with 9 samples.

Results

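The genes of fatty acid synthesis and desaturation were followed in RAW264.7 cells, a murine macrophage line in which RANKL induces osteoclast-like cells. The genes are the 10 whose symbol in the deposited gene table is Acly, Acaca, Fasn, Elovl5, Elovl6, Scd1, Scd2, Fads1, Fads2 or Srebf1, out of 56691 genes listed there. All 10 were found once each, and all 10 passed the expression filter of the test.

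Fatty acids are built in the cytosol. ATP citrate lyase (Acly) makes acetyl-CoA from citrate, acetyl-CoA carboxylase 1 (Acaca) turns it into malonyl-CoA, and fatty acid synthase (Fasn) assembles palmitate from both with NADPH. Elongases (Elovl5, Elovl6) lengthen the chains, and desaturases introduce double bonds, Scd1 and Scd2 in saturated chains and Fads1 and Fads2 in polyunsaturated ones. Srebf1 encodes the transcription factor SREBP-1, which is released from a membrane-bound precursor by cleavage and switches on many of these genes, and the nuclear receptor LXR acts on Srebf1 and on several of the enzymes. In macrophages this pathway feeds membrane growth and shapes the lipids used in inflammatory signalling.

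The cells were studied in 3 groups of 3 libraries each. The control group was untreated, and the RANKL group received RANKL at 50 ng/mL to induce osteoclast differentiation. The RANKL + UD group received RANKL at the same dose together with uridine (UD), a pyrimidine nucleoside. All 9 libraries are from the same line, harvested after 3 days, and the UD dose of these libraries is not given in the sources used here. The replicates are described as biological, but nothing says whether they were cultured on separate occasions, so p-values measure the spread between these libraries only. A monolayer treated with RANKL holds fused and unfused cells together, and in such bulk RNA fewer cells of a type and less RNA per cell cannot be told apart.

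Reads counted per gene totalled 15951800 to 19746862 per library. The 10 genes held 580 to 38084 counts in any library. Levels are given as FPKM, the count divided by the exonic length of the gene in kilobases and by the library total, which allows genes to be compared with each other. Differences are given as log2 fold changes with their standard errors (SE) from edgeR's quasi-likelihood test on the counts, and adjusted p-values are Benjamini-Hochberg values over the 11995 genes that reached an FPKM of 1 in 3 or more libraries. A gene is called higher or lower at an adjusted p under 0.05. The 3 comparisons share libraries with each other, so that a low RANKL group lowers the first difference and raises the second.

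The cell identity was checked with marker genes. Summed FPKM over 9 osteoclast markers was 46.92 to 50.06 in control, 2641 to 2844 in RANKL and 1666 to 1703 in RANKL + UD. Summed FPKM over 8 macrophage markers was 9373 to 9965, 2496 to 2742 and 2177 to 2311 in the same order, and most of the control sum was Lyz2 (7818 to 8299). Of the 7 macrophage markers tested, Cd68 rose with RANKL (0.60) and 6 fell, and with added UD Adgre1 rose (0.22) and 5 fell. Over all tested genes 27.3% were higher and 30.2% lower with RANKL, and 18.6% higher and 20.2% lower with added UD. Of 6 adipocyte markers, which would mark the best known lipogenic cell type, 5 were at 0 in every library and 0 entered the test. These marker sums move with the groups, and their part in the values that follow was not tested.

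Promoter sequences were available for 7 of the 10 genes, from the RefSeq annotation of GRCm38.p6, as windows from 250 bases before to 50 bases after each annotated start. They are shown for 4 genes because these differ in their response. Fasn and Elovl6 were lower with RANKL and higher with added UD, and Elovl5 was lower with RANKL and not called with UD. Srebf1 was called in no comparison with all 9 libraries and no replicate block. Capitals mark TCACCC, the core letters of a sterol regulatory element bound by SREBP, and CCAAT, the box bound by NF-Y, on either strand (ATTGG on the opposite one). The windows lie at chr11:120824498-120824797 on the minus strand for Fasn, at chr3:129532136-129532435 on the plus strand for Elovl6, at chr9:77917115-77917414 on the plus strand for Elovl5 and at chr11:60210422-60210721 on the minus strand for Srebf1, whose window is the most downstream of 3 annotated starts.
Fasn: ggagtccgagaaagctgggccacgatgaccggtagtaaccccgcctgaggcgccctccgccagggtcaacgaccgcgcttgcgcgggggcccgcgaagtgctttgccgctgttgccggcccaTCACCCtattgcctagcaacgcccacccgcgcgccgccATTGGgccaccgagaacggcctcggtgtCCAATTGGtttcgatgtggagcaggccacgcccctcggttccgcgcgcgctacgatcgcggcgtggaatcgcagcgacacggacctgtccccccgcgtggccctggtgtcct
Elovl6: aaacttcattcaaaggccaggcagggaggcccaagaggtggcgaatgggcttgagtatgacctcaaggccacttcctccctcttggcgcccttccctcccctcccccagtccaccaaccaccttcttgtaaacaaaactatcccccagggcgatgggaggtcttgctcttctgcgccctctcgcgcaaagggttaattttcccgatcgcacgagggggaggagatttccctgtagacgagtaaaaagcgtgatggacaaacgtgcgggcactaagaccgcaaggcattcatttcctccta
Elovl5: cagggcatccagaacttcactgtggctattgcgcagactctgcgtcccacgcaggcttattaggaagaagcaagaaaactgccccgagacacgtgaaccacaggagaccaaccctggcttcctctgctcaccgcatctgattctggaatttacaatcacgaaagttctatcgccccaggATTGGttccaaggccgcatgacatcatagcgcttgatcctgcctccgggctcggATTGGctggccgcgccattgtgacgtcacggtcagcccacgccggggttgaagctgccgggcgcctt
Srebf1: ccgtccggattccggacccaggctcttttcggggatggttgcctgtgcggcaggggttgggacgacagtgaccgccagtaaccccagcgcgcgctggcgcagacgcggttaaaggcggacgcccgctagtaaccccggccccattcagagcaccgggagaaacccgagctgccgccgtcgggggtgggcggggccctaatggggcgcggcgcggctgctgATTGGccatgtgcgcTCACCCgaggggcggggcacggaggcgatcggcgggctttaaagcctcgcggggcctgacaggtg

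The Fasn window held the sterol element core with its first base 128 bases before the start, and CCAAT boxes at 90, 62 and 59 bases before it, the last 2 overlapping on opposite strands. The Srebf1 window shown held the core 15 bases and a CCAAT box 30 bases before the start. The windows at the other annotated Srebf1 starts held no sterol core, and the most upstream held a CCAAT box. The Elovl5 window held CCAAT boxes 71 and 17 bases before the start and no sterol core, and the Elovl6 window held neither set of letters. Among 32851 promoter windows of the same length, 16.2% held TCACCC and 37.4% held CCAAT, so these letters are common. GGGCGG, the GC box bound by Sp1, was in 35.7% of windows and in those of Srebf1, Acly and Fads2. CACGTG, an E-box bound by USF factors, was in 7.15% of windows and in that of Elovl5. Each match describes letters only, and none was taken as a binding site. Scd1, Scd2 and Fads1 had no window.

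The level of each gene came first. In control cells Scd2 was the most abundant of the 10 transcripts at 286.7 FPKM ± 4.74 (SD, n = 3), above 99.1% of tested genes. Fads2 (85.7 ± 2.25) and Fads1 (83.1 ± 3.78) followed and their libraries overlapped, as did those of Elovl5 (64.9 ± 2.92) and Acly (63.6 ± 2.61). Scd1 stood at 60.2 ± 0.611 and Fasn at 24.2 ± 2.44. Elovl6 (12.3 ± 0.107), Srebf1 (10.5 ± 1.51) and Acaca (8.76 ± 0.450) were lowest, and neighbours among these 3 overlapped. With RANKL the order changed. Acly moved to the second place at 70.8 ± 1.19 FPKM, and Elovl6 moved to the last at 4.88 ± 0.190. With RANKL + UD, Elovl6 (10.3 ± 1.44), Srebf1 (9.19 ± 0.516) and Acaca (8.72 ± 0.212) overlapped with their neighbours again.

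**Figure D1:**
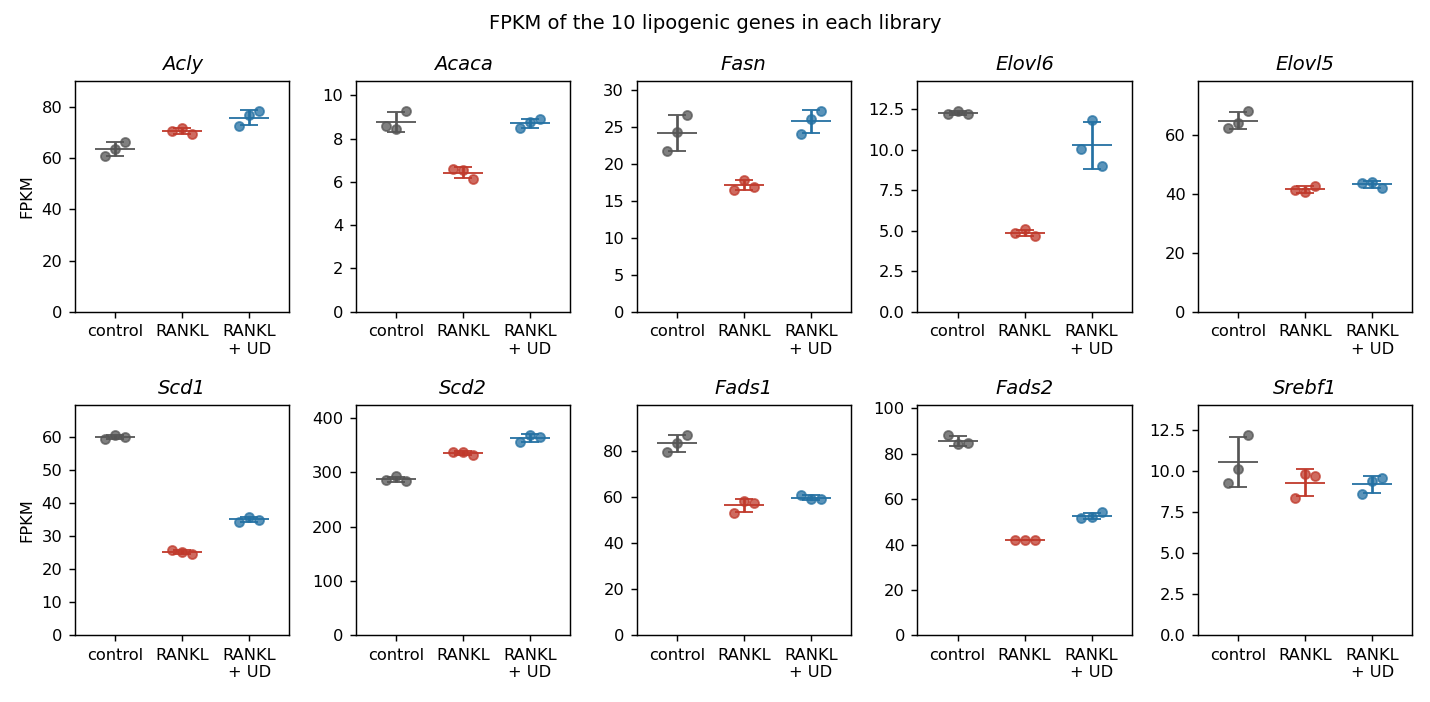
Each panel plots one gene, with FPKM on a linear axis from 0 and the 3 groups side by side. Points are the 9 libraries, long lines are group means and bars are 1 SD (n = 3). The RANKL libraries lie below the control libraries for 7 genes, above them for Acly and Scd2, and overlap them for Srebf1.

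Most of the enzymes were lower with RANKL, and some of these were higher again when UD was added. Against control, 7 of the 10 genes were called lower with RANKL and 2 higher, where 57.6% of tested genes were called either way (27.3% higher and 30.2% lower). With RANKL + UD against RANKL, 5 were called higher and 0 lower, where 38.8% of tested genes were called (18.6% higher and 20.2% lower). DESeq2 also called 0 lower in that comparison, and edgeR gave 0 lower at an unadjusted p under 0.05. With RANKL + UD against control, 2 were called higher and 5 lower, where 54% of tested genes were called (26.7% higher and 27.3% lower). The median log2 fold change of the 10 genes was -0.44 in the first comparison, 0.14 in the second and -0.23 in the third, beside -0.03, 0.0050 and -0.0021 over all tested genes. FPKM libraries did not overlap between RANKL and control for 2 genes that were higher and 7 that were lower, against 61.7% of all tested genes (22.9% higher and 38.8% lower). Between RANKL + UD and control they did not overlap for 2 genes that were higher and 5 that were lower, against 59.9% of all tested genes (29.5% higher and 30.4% lower).

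The scaling of the libraries bears on these counts. The RANKL libraries had TMM factors of 0.959 to 0.963 and the others 1.01 to 1.03, and FPKM carries no such factor. In FPKM, 8 of the 10 genes had every RANKL + UD library above every RANKL library, against 51.7% of all tested genes without overlap (34.1% higher and 17.6% lower). Fads1, Acly and Scd2 were among the 8, and their libraries overlapped once values were scaled by TMM. With total counts in place of TMM, the median of all genes in this comparison moved from 0.01 to 0.09 and the share of calls that were higher from 48.0% to 66.2%. In RANKL against control the same change moved the median from -0.03 to -0.11 and that share from 47.5% to 36.9%.

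**Figure D2:**
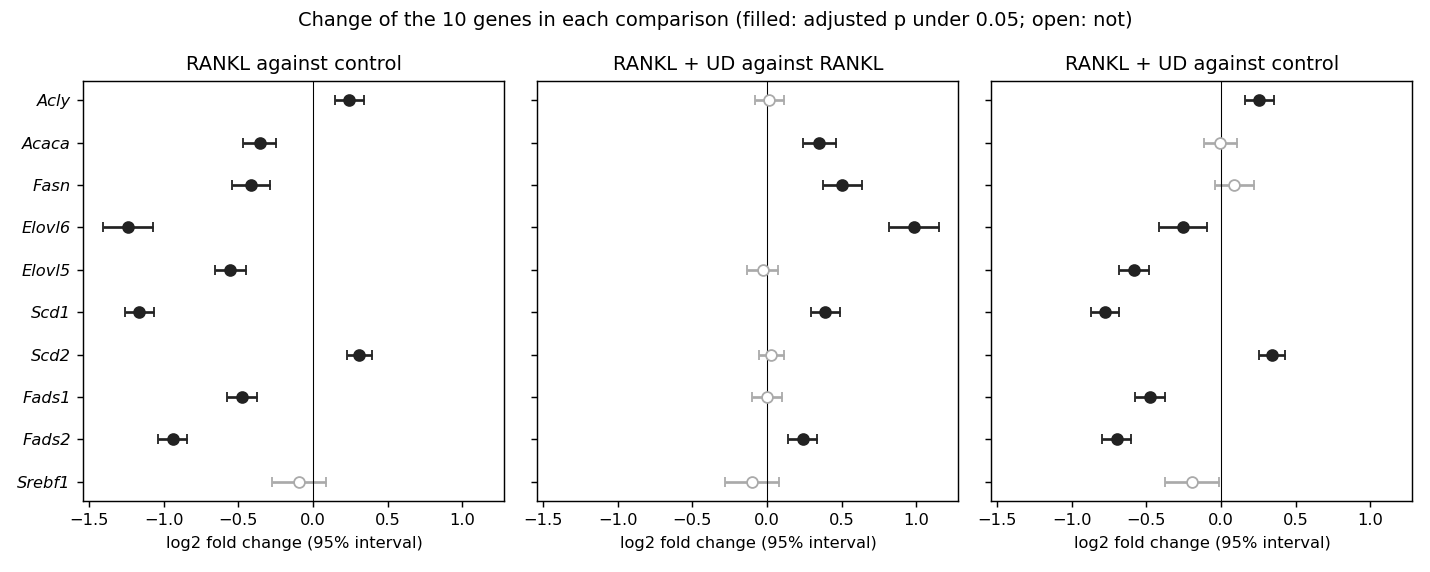
Points give the log2 fold change of each gene from edgeR with its 95% interval, in one panel per comparison. Filled points have an adjusted p under 0.05 and open points do not. Scd1, Fads2 and Elovl6 are filled in all 3 panels and change side between the first and the second, while Srebf1 is open in all 3.

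The first reactions of the pathway were examined in order. Acly (ENSMUSG00000020917; chromosome 11, 100367179 to 100418826, minus strand) supplies cytosolic acetyl-CoA. Its FPKM was 61.07, 63.49 and 66.28 in control, 70.55, 72.07 and 69.72 in RANKL, and 72.57, 76.79 and 78.48 in RANKL + UD. Every library given RANKL lay above every control library. Acly rose with RANKL by a log2 fold change of 0.24 (SE 0.05, edgeR adjusted p = 0.0001553), a fold of 1.18 with TMM scaling. Its mean FPKM, which carries no TMM factor, was 111.3% of that in control. Between RANKL + UD and RANKL the difference was 0.02, with a 95% interval of -0.08 to 0.11 (adjusted p = 0.8342).

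Acaca (ENSMUSG00000020532; chromosome 11, 84020498 to 84292477, plus strand) encodes the enzyme that commits acetyl-CoA to fatty acids. Its FPKM was 8.57, 8.43 and 9.27 in control, 6.61, 6.56 and 6.13 in RANKL, and 8.49, 8.75 and 8.91 in RANKL + UD. The RANKL libraries stood alone at the bottom, and the control and RANKL + UD libraries overlapped. Acaca fell with RANKL by 0.36 on the log2 scale (SE 0.05, adjusted p = 6.299e-06) and rose with added UD by 0.35 (SE 0.05, adjusted p = 1.971e-05). RANKL + UD against control gave -0.01, with an interval of -0.11 to 0.10 (adjusted p = 0.9431).

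Fasn (ENSMUSG00000025153; chromosome 11, 120696672 to 120715373, minus strand), whose promoter carries the sterol core and 3 CCAAT boxes shown above, is the multifunctional synthase itself. Its FPKM was 21.66, 24.34 and 26.53 in control, 16.48, 17.81 and 16.90 in RANKL, and 24.05, 25.98 and 27.10 in RANKL + UD. As with Acaca, only the RANKL libraries stood apart. Fasn fell with RANKL by 0.41 (SE 0.06, adjusted p = 7.291e-06) and rose with added UD by 0.50 (SE 0.06, adjusted p = 1.617e-06). Against control, RANKL + UD gave 0.09, with an interval of -0.04 to 0.22 (adjusted p = 0.2313), and without control replicate 3 this became 0.16 with an adjusted p of 0.02071.

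The elongases did not move alike. Elovl6 (ENSMUSG00000041220; chromosome 3, 129326004 to 129432144, plus strand) extends palmitate to stearate and had the largest change of the 10 genes in RANKL against control and in RANKL + UD against RANKL. Its FPKM was 12.20, 12.39 and 12.21 in control, 4.87, 5.08 and 4.70 in RANKL, and 10.04, 11.82 and 8.97 in RANKL + UD. The groups did not overlap, with RANKL at 39.8% and RANKL + UD at 83.8% of the control mean, and the RANKL + UD libraries were the most spread. Elovl6 fell with RANKL by 1.24 on the log2 scale (SE 0.08, adjusted p = 2.108e-11) and rose with added UD by 0.99 (SE 0.08, adjusted p = 6.038e-09), the place 569 of 11995 by size. RANKL + UD differed from control by -0.26 (adjusted p = 0.007504). Without RANKL + UD replicate 3, the lowest library of its group, that difference was -0.17 with an adjusted p of 0.07252.

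Elovl5 (ENSMUSG00000032349; chromosome 9, 77824646 to 77891801, plus strand) extends polyunsaturated chains. Its FPKM was 62.47, 64.00 and 68.12 in control, 41.44, 40.50 and 42.76 in RANKL, and 43.81, 43.93 and 41.98 in RANKL + UD. Control stood above all other libraries, and the RANKL and RANKL + UD libraries overlapped. Elovl5 fell with RANKL by 0.55 (SE 0.05, adjusted p = 3.609e-09). Added UD gave -0.03, with an interval of -0.13 to 0.07 (adjusted p = 0.6909), and the sign of this small value turned with total counts (0.06).

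The stearoyl-CoA desaturases, which make oleate and palmitoleate, moved in opposite directions with RANKL. Scd1 (ENSMUSG00000037071; chromosome 19, 44382894 to 44396318, minus strand) had an FPKM of 59.59, 60.81 and 60.14 in control, 26.00, 25.24 and 24.54 in RANKL, and 34.33, 36.02 and 35.07 in RANKL + UD. The 3 groups were fully apart, and RANKL + UD lay between the others. Scd1 fell with RANKL by 1.17 (SE 0.05, adjusted p = 5.165e-15), rose with added UD by 0.39 (SE 0.05, adjusted p = 1.035e-06) and with both differed from control by -0.78 (adjusted p = 4.877e-12).

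Scd2 (ENSMUSG00000025203; chromosome 19, 44282113 to 44295303, plus strand), its neighbour on the same chromosome, had an FPKM of 284.86, 292.12 and 283.20 in control, 336.22, 337.10 and 331.02 in RANKL, and 354.56, 368.62 and 365.36 in RANKL + UD. In FPKM the 3 groups were apart, with control lowest. Scd2 rose with RANKL by 0.31 (SE 0.04, adjusted p = 1.344e-06) and with RANKL + UD against control by 0.34 (adjusted p = 4.115e-07). The step from RANKL to RANKL + UD was 0.03 with TMM scaling (interval -0.06 to 0.12, adjusted p = 0.6081), and 0.12 with total counts (adjusted p = 0.02883). Scd1 and Scd2 are related genes with similar coding parts, and the handling of reads that match both is not given in the sources used here. Their split is therefore uncertain to an extent that was not examined.

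The front-end desaturases Fads1 (delta-5) and Fads2 (delta-6) work in turn on linoleate and alpha-linolenate. Fads2 (ENSMUSG00000024665; chromosome 19, 10040129 to 10079110, minus strand) had an FPKM of 88.30, 84.15 and 84.70 in control, 41.94, 42.04 and 42.13 in RANKL, and 51.89, 51.98 and 54.28 in RANKL + UD. No 2 groups overlapped, and RANKL + UD was intermediate at 61.5% of the control mean against 49.0% for RANKL. Fads2 fell with RANKL by 0.94 (SE 0.05, adjusted p = 2.16e-13), rose with added UD by 0.24 (SE 0.05, adjusted p = 0.0003276) and with both differed from control by -0.70 (adjusted p = 3.287e-11).

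Fads1 (ENSMUSG00000010663; chromosome 19, 10160252 to 10174241, plus strand) had an FPKM of 79.33, 83.18 and 86.89 in control, 53.21, 58.17 and 57.48 in RANKL, and 60.76, 59.05 and 59.30 in RANKL + UD. Control was highest, and the RANKL + UD libraries lay just above the RANKL libraries on this scale. Fads1 fell with RANKL by 0.48 (SE 0.05, adjusted p = 3.896e-08). The difference between RANKL + UD and RANKL was -0.0008 on the TMM scale, with an interval of -0.10 to 0.10 (adjusted p = 0.9909), and 0.09 with total counts.

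Srebf1 (ENSMUSG00000020538; chromosome 11, 60089915 to 60113407, minus strand), the regulator, was the only one of the 10 that was called in no comparison with all 9 libraries and no replicate block. Its FPKM was 9.27, 10.12 and 12.20 in control, 8.35, 9.81 and 9.70 in RANKL, and 8.60, 9.41 and 9.56 in RANKL + UD. The groups overlapped, and control replicate 3 was the highest library. The log2 difference was -0.09 for RANKL against control (interval -0.27 to 0.09, adjusted p = 0.379) and -0.10 for RANKL + UD against RANKL (interval -0.28 to 0.08, adjusted p = 0.3897). For RANKL + UD against control it was -0.19 (interval -0.38 to -0.01, adjusted p = 0.06694), -0.27 without control replicate 1 (adjusted p = 0.01419) and -0.19 with the replicate number as a block (adjusted p = 0.02493), both called lower. SREBP-1 is controlled by cleavage of its precursor as well as by transcript level, and cleavage is not measured here. The 3′ end of Srebf1 overlaps that of Rai1 on the opposite strand, and whether counting used the strand is not given in the sources used here.

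Ratios between related genes within a library do not depend on how libraries are scaled. They were compared by a two-sided exact permutation test, for which 3 against 3 libraries cannot give a p below 0.1, and 10 such comparisons were made. The Scd1 to Scd2 ratio was 0.2092, 0.2082 and 0.2124 in control, 0.07733, 0.07487 and 0.07413 in RANKL, and 0.09682, 0.09772 and 0.09599 in RANKL + UD. No libraries of different groups overlapped, and the log2 ratio differed by -1.48 with RANKL and by 0.36 with added UD (exact p = 0.1 each, 0.1429 after Benjamini-Hochberg adjustment over the 10). Scd1 was thus lowest relative to Scd2 in the RANKL libraries, and the RANKL + UD libraries lay closer to these than to control.

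The Elovl5 to Elovl6 ratio was 5.12, 5.165 and 5.579 in control, 8.509, 7.972 and 9.098 in RANKL, and 4.364, 3.717 and 4.68 in RANKL + UD. The log2 ratio differed by 0.69 with RANKL and by -1.01 with added UD, which left every RANKL + UD library below every control library (exact p = 0.1, adjusted 0.1429 for each). The Fads1 to Fads2 ratio had a geometric mean of 0.969 in control, 1.34 in RANKL and 1.13 in RANKL + UD, again with no overlap between groups (differences 0.46 and -0.24, exact p = 0.1, adjusted 0.1429). The Fasn to Acaca ratio was 2.75 in control, 2.65 in RANKL (difference -0.05, exact p = 0.5, adjusted 0.625) and 2.95 in RANKL + UD (difference from RANKL 0.15, exact p = 0.1, adjusted 0.1429). The ratio of Srebf1 to Srebf2, the regulator of cholesterol synthesis, was 0.350, 0.356 and 0.367, with overlapping libraries (exact p = 0.8 and 0.7).

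**Figure D3:**
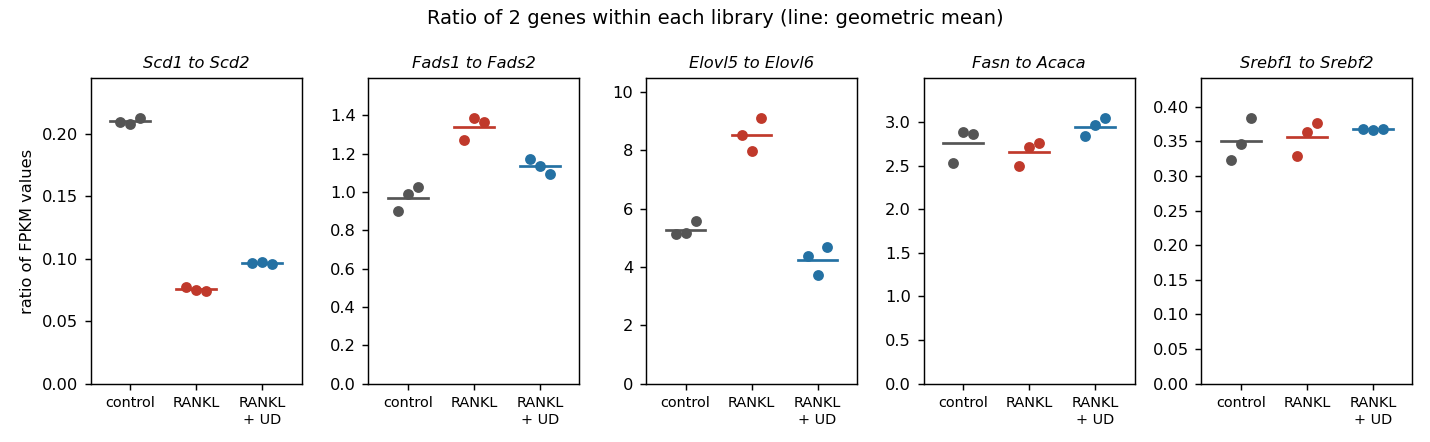
Each panel plots the ratio of the FPKM values of 2 genes in each of the 9 libraries, on a linear axis from 0, with a line at the geometric mean of each group. The groups are apart for Scd1 to Scd2, Fads1 to Fads2 and Elovl5 to Elovl6, and overlap for Srebf1 to Srebf2.

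The 10 genes fell into 5 response patterns. How many of all tested genes follow each pattern was not counted. Called either way were 57.6% of all tested genes in RANKL against control, 38.8% in RANKL + UD against RANKL and 54% in RANKL + UD against control. Scd1, Fads2 and Elovl6 (3 genes) were lower with RANKL, higher with added UD and lower than control with both. Fasn and Acaca (2 genes) were lower with RANKL, higher with added UD and not called against control. Fads1 and Elovl5 (2 genes) were lower with RANKL and not called between RANKL + UD and RANKL. Acly and Scd2 (2 genes) were higher with RANKL and higher with both, and Srebf1 (1 gene) was called in none of the 3, other than with the block or without control replicate 1. Summed over the 10 genes, FPKM was 687.3 to 709.5 in control, 605.1 to 614.4 in RANKL and 669.1 to 692.4 in RANKL + UD, a sum in which Scd2 weighs most.

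Genes that supply or extend the pathway were then counted. Over all tested genes, 27.3% were higher and 30.2% lower with RANKL, and 18.6% were higher and 20.2% lower with added UD. Of 29 other genes of fatty acid synthesis, elongation and desaturation, 19 were tested, and with RANKL 9 rose and 6 fell (median log2 fold change 0.24). The largest changes were in the dehydratases of the elongation cycle, Hacd1 (3.06) and Hacd4 (-1.53), followed by Fads6 (-1.15) and the acetyl-CoA synthetase Acss2 (-0.75). Hacd1 was near the floor in control, at a mean of 0.48 FPKM against 3.78 in RANKL and 1.69 in RANKL + UD. Fads6 passed the filter only through control, where its mean was 1.62 FPKM, against 0.687 in RANKL. With added UD 4 rose and 4 fell (median -0.09), among them Hacd1 (-1.25), malic enzyme Me1 (0.80), Mid1ip1 (-0.59), which promotes polymerisation of acetyl-CoA carboxylase, and Acss2 (-0.53). Scd3, Scd4, Fads3 and Acacb stayed under 1 FPKM in every library and were not tested. The median of this wider list had the opposite sign to that of the 10 genes in both comparisons, and the difference between the lists was not tested.

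NADPH, the reductant consumed by Fasn, is supplied by several dehydrogenases, malic enzyme and NAD kinase. Which of the listed genes serve Fasn was not examined. Among all tested genes, 27.3% were higher and 30.2% lower with RANKL, and 18.6% were higher and 20.2% lower with added UD. All 8 listed genes were tested, and with RANKL 1 rose and 5 fell (median -0.49). Isocitrate dehydrogenase Idh1 (-0.79), H6pd (-0.72) and the pentose phosphate enzyme G6pdx (-0.70) fell, and Me1 rose (0.60). With added UD 4 rose and 1 fell (median 0.15), including Me1 (0.80), NAD kinase Nadk (0.37) and G6pdx (0.25), while Aldh1l1 fell (-0.71). Aldh1l1 was near the floor, at a mean of 1.32 FPKM in RANKL and 0.86 in RANKL + UD. Me1 is also in the list of other fatty acid synthesis genes, so the counts of these lists are not independent.

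Factors that process SREBP or drive lipogenic genes were called about as often as all genes with RANKL. Of 25 genes, 21 were tested, and with RANKL 7 rose and 7 fell (median -0.08), where 27.3% of all tested genes were higher and 30.2% lower, with the largest values for Lpin1 (0.89), Usf1 (-0.59), the NF-Y subunit Nfyb (-0.49) and the LXR gene Nr1h3 (0.48). With added UD 4 rose and 9 fell (median -0.14), where 18.6% of all tested genes were higher and 20.2% lower, including Lpin1 (-0.47), Usf2 (-0.37), Rxrb (-0.31) and Scap (0.27), the escort protein of SREBP. The genes for ChREBP (Mlxipl) and PPARγ (Pparg) stayed under 1 FPKM in every library. The list of 12 LXR targets also holds Scd1, Scd2, Srebf1 and Nr1h3. Of these 12 genes, 10 were tested, with 2 higher and 6 lower in RANKL and 3 higher and 2 lower with added UD.

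Cholesterol genes, which answer to SREBP-2, offered a second sterol pathway for comparison. The shares over all tested genes were 27.3% higher and 30.2% lower with RANKL, and 18.6% higher and 20.2% lower with added UD. Of 22 genes, 21 were tested, and with RANKL 0 rose and 11 fell (median -0.22), including Dhcr7 (-1.24) and Pmvk (-0.74). With added UD 7 rose and 2 fell (median 0.10), including Sc5d (0.52), Stard4 (0.52) and Idi1 (0.39). Their counts leaned in the same directions as those of the 10 lipogenic genes in both comparisons, and the difference between the lists was not tested.

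Genes that use fatty acids gave other counts. Beside them, 27.3% of all tested genes were higher and 30.2% lower with RANKL, and 18.6% higher and 20.2% lower with added UD. Of 19 genes of mitochondrial fatty acid oxidation, 17 were tested, and with RANKL 11 rose and 3 fell (median 0.28), including Acaa2 (1.48), while Cpt1a, which controls entry of fatty acids into mitochondria, fell (-0.92). With added UD 3 rose and 2 fell (median 0.01), Cpt1a rising by 0.46. Of 19 genes of fatty acid activation, uptake and triglyceride synthesis, 16 were tested, with 8 higher and 5 lower in RANKL (median 0.07) and 3 higher and 8 lower with added UD (median -0.06). Acsl3 rose with RANKL (0.99) and fell with added UD (-0.70), as did the lipid droplet protein Plin3 (1.26 and -0.64). Cd36 fell with RANKL (-0.93) and was not called with added UD (0.07). Lpin1 is also in the list of factors that process SREBP or drive lipogenic genes.

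**Figure D4:**
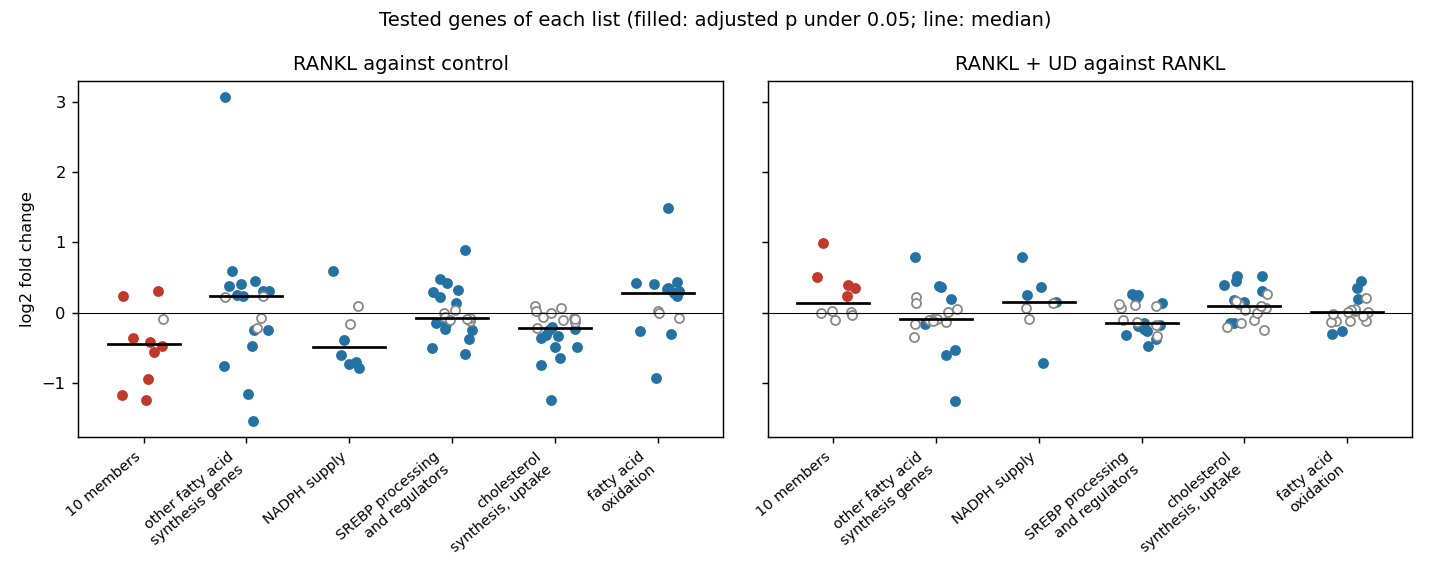
Each point is a tested gene of a list, placed by its log2 fold change, with RANKL against control on the left and RANKL + UD against RANKL on the right. Filled points have an adjusted p under 0.05 and lines are list medians. The 10 genes are in red with medians of -0.44 and 0.14, beside -0.22 and 0.10 for cholesterol genes and 0.28 and 0.01 for fatty acid oxidation genes.

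Tested genes outside the 10 with the most similar profile were listed for 5 of them by Pearson's r of log2(FPKM + 1) over the 9 libraries. The libraries form 3 groups and share their scaling, so high values are usual, and these are given as a description. Scd1 and Fads2 had the same closest gene, Sgpp1, a sphingosine-1-phosphate phosphatase, at r = 0.998 for both. Fasn was closest to Scrib (0.986), Ccne1 (0.983) and the lysosomal acid lipase gene Lipa (0.982), Scd2 to Cct6a (0.994), and Srebf1 to Rpl13 (0.983).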

How the data were processed

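RNA from RAW264.7 cells was sequenced in 9 libraries of 3 groups, assigned from their labels. The RANKL columns of the deposited table carry the name model, which the paper uses for that group, and all 18 value columns matched 1 library each. The authors deposited raw counts per gene and FPKM values made from these counts, the exonic gene length and the library total; recomputed FPKM matched within 0.0051. Sequencing used Illumina NovaSeq, and the labels name the build mm10. The aligner, the counting tool and the annotation are not given in the sources used here. Coordinates of genes are those of the deposited table, and since 0 of the 10 genes have the same position in GRCm38 although 10 have the same length, they must not be read on that build.

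Counts were tested with edgeR 4.0.16 in R 4.3.3 (TMM scaling, quasi-likelihood test, all 9 libraries in one fit, common dispersion 0.00401). DESeq2 1.42.0 and limma 3.58.1 served as alternatives, as did RLE size factors, total counts, no expression filter, a pseudocount of 0.1 in place of 1, only the 6 libraries compared, a replicate block and each library left out. The procedure was run on simulated data with 200 genes changed, in the RANKL + UD group only. Far more genes were called in the data, so the simulation cannot test the scaling of these libraries. Pairs of replicates differed by a chi-square per degree of freedom of 2.91 to 8.89, so none were merged. Named genes of a list are at most 4 called genes with the largest change, and similar genes are the 3 with the highest r. Single results for some list genes are not reported here. The 10 genes and the gene lists were chosen with earlier results of these data known.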

Additional observations from a re-analysis of the deposited data

How the results depend on the processing

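Of 30 results (10 genes in 3 comparisons), 21 kept their direction and call under all 17 alternatives, among them 20 of the 21 that were called. The exception was Elovl6 in RANKL + UD against control without RANKL + UD replicate 3 (-0.17). Scd2 in RANKL + UD against RANKL became called with total counts (0.12) and with limma (0.12 with either pseudocount), and against control Fasn became called without control replicate 3 and Srebf1 without control replicate 1. Signs turned only for small values that were not called. In RANKL + UD against RANKL, Fads1 gave 0.0047 without the filter, 0.0852 with total counts, 0.0845 and 0.0859 with limma, 0.0005 with the replicate block and -0.0385 to 0.022 with single libraries left out. In the same comparison Elovl5 gave 0.057 with total counts and 0.0557 and 0.0569 with limma, and Acly -0.0085 to 0.0438 with single libraries left out. Acaca in RANKL + UD against control gave 0.0141 without the filter and -0.0354 to 0.0375 with libraries left out, and Srebf1 in RANKL against control -0.1717 to 0.023. The log2 ratio of Srebf1 to Srebf2 ranged from -0.0331 to 0.0894 for RANKL and from -0.0107 to 0.0864 for added UD. Over all tested genes, those lower in RANKL + UD than in RANKL numbered 2418, and 1556 or 1536 with limma and a pseudocount of 1 or 0.1.

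Libraries with the same replicate number correlated at -0.03 to 0.097 over 9 pairs. As no label gives the numbers a shared culture or day, they were read as names only. A library was closest to its own number in 11 of 18 checks, where 6 would come by chance, a hint of pairing from the data and not from the design. A replicate block moved the calls from 6906 to 7040, from 4651 to 4865 and from 6473 to 6602, and Srebf1 in RANKL + UD against control became called (-0.19, adjusted p = 0.02493). With 3 libraries a group, a ratio test cannot pass 0.05, and differences in sequencing batch were not tested because no source used here gives one.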
